A study of Homo sapiens with 12 samples.

Results

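The transcripts described here are 10 genes of the epithelial-mesenchymal transition (EMT), chosen by name: the cadherins CDH1, CDH2 and CDH11, the matrix protein gene FN1, the intermediate filament gene VIM, and the transcription factor genes ZEB1, ZEB2, SNAI1, SNAI2 and TWIST1. A measured row was matched for 8 of the 10, of 21207 genes in the series, and CDH1 and CDH11 are not analysed here. RNA came from HEYA8 cells, a long-established line from a human ovarian carcinoma, grown in DMEM with serum. Cultures were kept for 48 h in medium with colforsin daropate at 0 (vehicle), 1, 5 or 10 µM, and each of the 4 groups gave 3 libraries of total RNA depleted of ribosomal RNA. The drug is a forskolin derivative made to dissolve in water, and forskolin directly activates adenylyl cyclase, the enzyme that makes cyclic AMP. The libraries of every group carry the label numbers 6, 8 and 11, and what the number marks is not given in the sources used here. All groups are the same line, and the drug effect in other ovarian cancer cells was not measured.

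In an EMT, epithelial cells lose their junctions and take on mesenchymal features such as motility and deposition of matrix. The SNAI, ZEB and TWIST factors bind E-boxes, DNA sites of the form CANNTG, and are best known for repressing CDH1, the epithelial cadherin. A shift from CDH1 to CDH2, with vimentin and fibronectin expressed, is the usual mark of the mesenchymal end, and ovarian carcinoma lines often lie between both ends. Cyclic AMP activates protein kinase A, which phosphorylates CREB, a factor that binds the cyclic AMP response element (CRE), TGACGTCA.

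The 3 members that passed the test against vehicle were FN1, CDH2 and VIM. The 250 bases before their RefSeq start sites (GRCh38.p14) are shown because a CRE lies in 1 of the 3. Sequences run 5′ to 3′ on the gene's strand, and capitals mark the CRE.
FN1, chr2:215436069-215436318, minus strand: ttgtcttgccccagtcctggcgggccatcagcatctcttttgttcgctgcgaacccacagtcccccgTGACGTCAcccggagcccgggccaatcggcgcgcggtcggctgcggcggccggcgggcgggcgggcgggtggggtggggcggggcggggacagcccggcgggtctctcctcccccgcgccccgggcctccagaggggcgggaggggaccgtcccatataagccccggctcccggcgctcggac
CDH2, chr18:28177131-28177380, minus strand: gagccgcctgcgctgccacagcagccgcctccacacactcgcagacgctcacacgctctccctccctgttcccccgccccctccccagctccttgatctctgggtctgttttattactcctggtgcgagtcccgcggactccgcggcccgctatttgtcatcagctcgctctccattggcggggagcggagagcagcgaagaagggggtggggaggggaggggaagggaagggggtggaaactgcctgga
VIM, chr10:17227991-17228240, plus strand: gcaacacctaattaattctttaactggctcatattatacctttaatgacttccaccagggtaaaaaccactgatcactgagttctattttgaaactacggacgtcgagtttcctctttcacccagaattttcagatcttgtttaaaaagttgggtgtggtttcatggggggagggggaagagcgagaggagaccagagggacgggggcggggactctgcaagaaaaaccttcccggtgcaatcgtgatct
The FN1 window held the 8-base CRE from 183 to 176 bases before the start, an element found in 1.646% of 35114 promoter windows of the same length. This palindrome also contains the shorter CRE core on each strand (TGACG or CGTCA), which 21.22% of all windows held. The CDH2 and VIM windows shown held no CRE, no CRE core and no E-box. A second CDH2 window, at chr18:28036642-28036891 on the minus strand, held 2 CRE cores, at 51 to 47 and 8 to 4 bases before its start. E-boxes of the type CACCTG, or CAGGTG on the other strand, were searched on both strands and occurred in 17.49% of all windows. Among the members they occurred in 2 of 7 ZEB1 windows. Another ZEB1 window, at chr10:31321410-31321659 on the plus strand, held 2 CRE cores, at 190 to 186 and 46 to 42 bases before its start. The ZEB2 window held 1 CRE core and 1 E-box of another type. E-boxes of other types also lay in ZEB1 windows and in the second CDH2 window, and 61.82% of all windows held an E-box of any type. RefSeq windows were matched for 5 of the 10 members, 12 windows in all. CDH1, CDH11, SNAI1, SNAI2 and TWIST1 had no matched window. These matches describe letters in a window, and binding was not measured.

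Values are the authors' variance-stabilised levels, which follow log2 of the normalised read count for abundant genes and flatten towards a floor of 4.86 near 0 reads. They were deposited with 3 significant digits, so levels of 10 or more are in steps of 0.1. Gene reads recovered from these values came to 23.9 megareads in vehicle library 6 and at most 48.4 megareads in any library. All 8 matched members passed the filter on low values, SNAI1 through dosed libraries only. Ovarian carcinoma markers were checked in the line: PAX8, a transcription factor of the Müllerian lineage, lay at 12.5 to 13.6, and EPCAM, an epithelial adhesion molecule, lay at 5.45 to 5.72, near the floor. Vehicle library 6 was the shallowest library and had the highest FN1, CDH2 and VIM levels of the vehicle group, so the main results are also given without it or without label number 6. The 3 dose comparisons share their vehicle libraries and are not independent of each other. In bulk RNA, a change in the share of cells that express a gene and a change in RNA per cell cannot be told apart.

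FN1 and CDH2 rose and VIM fell in HEYA8 cells given colforsin daropate, and none of the 5 EMT transcription factors passed the main test at any dose. SNAI2 passed at 1 µM in the fit with label number as a block (0.23 higher, limma adjusted p = 0.0220). At 10 µM, FN1 was 3.68-fold and CDH2 2.52-fold higher than in vehicle, and VIM was 1.97-fold lower. These folds are ratios of mean normalised reads, whereas the tests and differences are on the stabilised log2 values. These 3 were the members called at 5 µM and at 10 µM, and FN1 was the member called at 1 µM. The share of all 17767 tested genes that passed the same test was 1.80% for the 1 µM dose, 15.1% for 5 µM and 22.6% for 10 µM. With the block, 3 members (FN1, CDH2 and SNAI2) were called at 1 µM, where 12% of all genes were called. Calls were made with limma on all 12 libraries at a Benjamini-Hochberg adjusted p under 0.05, adjusted over all genes.

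**Figure D1:**
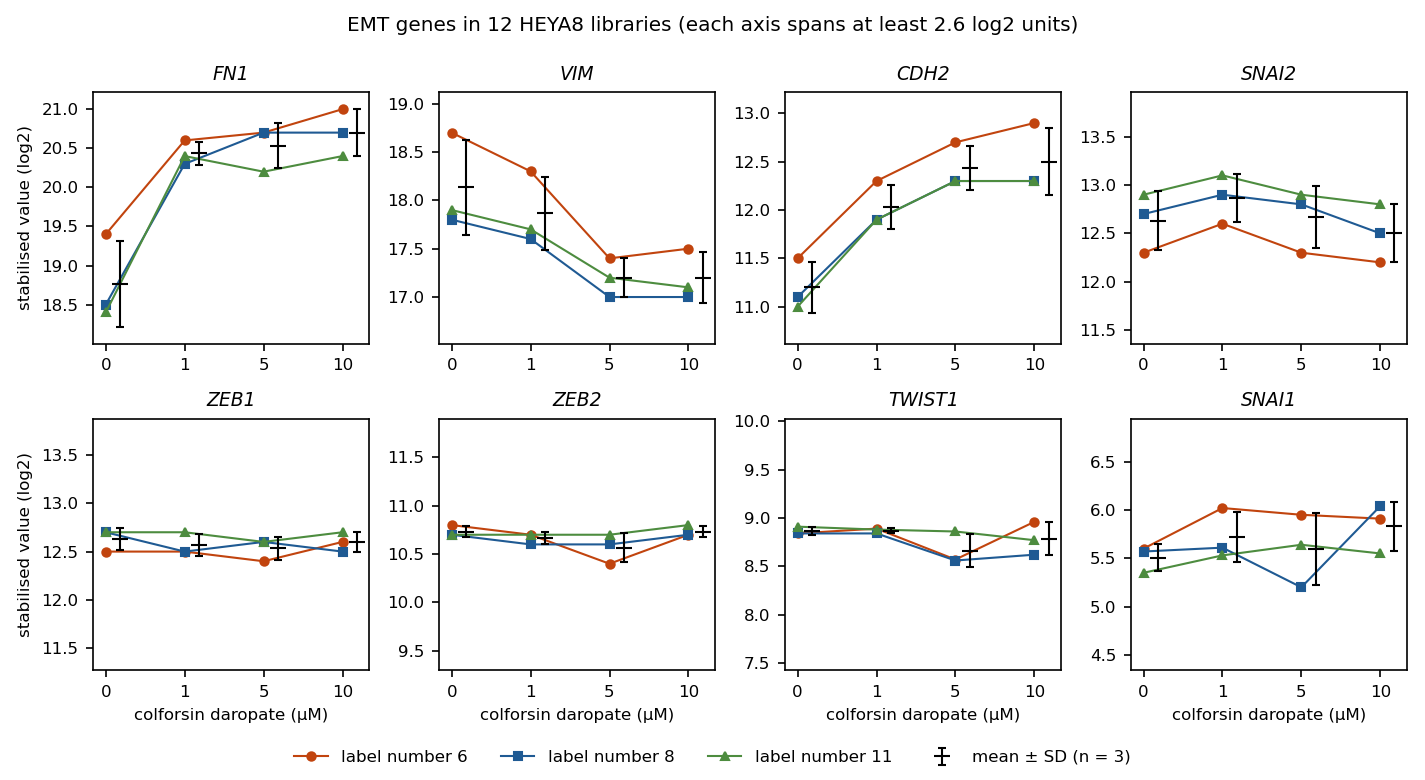
Stabilised levels (log2 scale, vertical axis) of the 8 measured genes in all 12 libraries against the colforsin daropate dose in µM, with doses drawn at equal spacing; lines join libraries with the same label number, and bars show the mean ± SD of 3 libraries. FN1 and CDH2 lie above vehicle at every dose, VIM lies below vehicle at 5 and 10 µM, and the transcription factors overlap with vehicle.

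FN1 (ENSG00000115414, chromosome 2, 215360440 to 215436172, minus strand, GENCODE 29 on GRCh38) encodes fibronectin, a secreted glycoprotein that cells assemble into matrix fibres and bind through integrins. In libraries 6, 8 and 11, its level was 19.4, 18.5 and 18.4 in vehicle and 20.6, 20.3 and 20.4 at 1 µM. It was 20.7, 20.7 and 20.2 at 5 µM, and 21, 20.7 and 20.4 at 10 µM. Every treated library lay above every vehicle library, and the dosed groups overlapped with each other. The difference from vehicle was 1.67 ± 0.30 (SE) at 1 µM (limma adjusted p = 0.0175), 1.77 ± 0.30 at 5 µM (0.00276) and 1.93 ± 0.30 at 10 µM (9.85e-04). By label number, the 10 µM difference was 1.6, 2.2 and 2.0, so the smallest rise was in number 6, whose vehicle library started highest.

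FN1 was already among the most abundant transcripts of the line. It took 1.85%, 1.00% and 0.896% of gene reads in vehicle libraries 6, 8 and 11, ranking first in libraries 6 and 8 and 3 in library 11. At 10 µM it took 5.48%, 4.57% and 3.53%, and it ranked first among genes in all 9 treated libraries. Without label number 6, the difference was 1.90 at 1 µM (limma adjusted p = 0.00276) and 2.10 at 10 µM (4.16e-04). With label number as a block, FN1 passed at 1, 5 and 10 µM (limma adjusted p = 9.87e-05, 1.35e-05 and 4.07e-06). Without number 8 and without the block, no dose passed (1.80 at 10 µM, limma adjusted p = 0.0859). That fit called 4, 137 and 592 of 17472 genes at 1, 5 and 10 µM. Without number 11 the FN1 calls at 1 and 5 µM were lost (1.75 at 5 µM, limma adjusted p = 0.0784), where 2 and 209 of 17462 genes were called. The call at 1 µM was lost when any of vehicle libraries 8 and 11 or 1 µM libraries 6, 8 and 11 was left out (differences 1.48 to 1.73, limma adjusted p = 0.0634 to 0.0964). Quantile normalisation, which forces each library's top gene to the same value, lowered the difference to 0.74 at each dose, and none passed (limma adjusted p = 0.114 at 10 µM).

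**Figure D2:**
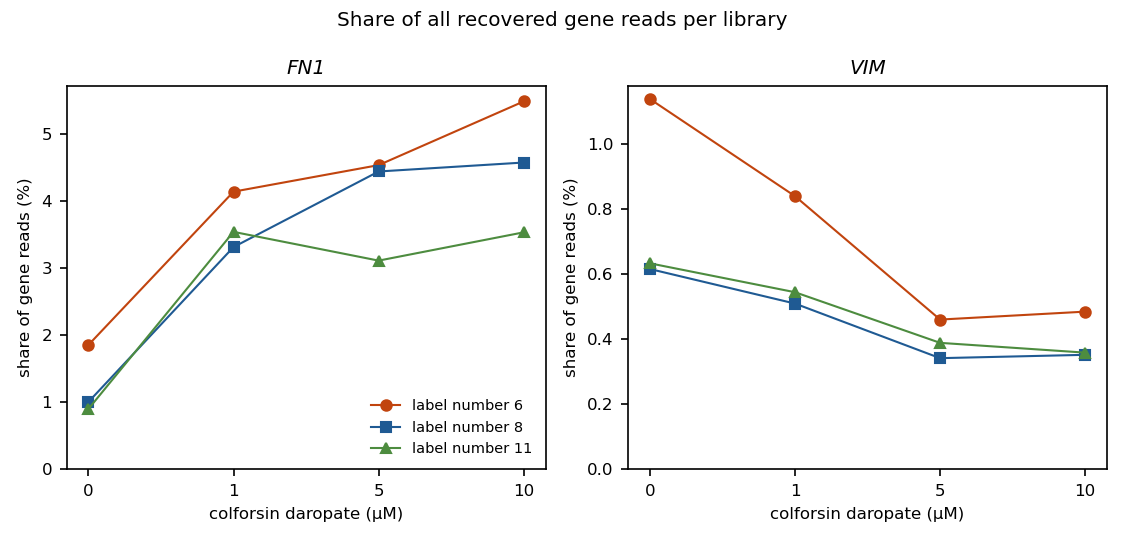
Share of recovered gene reads (percent, vertical axis from 0) taken by FN1 and by VIM in each library against the colforsin daropate dose in µM at equal spacing, with lines joining the same label number. FN1 goes from 0.896% to 1.85% in vehicle to 3.53% to 5.48% at 10 µM, and VIM from 0.616% to 1.14% to 0.352% to 0.485%.

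CDH2 (ENSG00000170558, chromosome 18, 27950966 to 28177446, minus strand) encodes N-cadherin, the calcium-dependent adhesion molecule of neural and mesenchymal cells. Its level in libraries 6, 8 and 11 was 11.5, 11.1 and 11 in vehicle and 12.3, 11.9 and 11.9 at 1 µM. It was 12.7, 12.3 and 12.3 at 5 µM, and 12.9, 12.3 and 12.3 at 10 µM. No treated library reached down to the vehicle range, and library 6 was the highest of each group. The difference was 1.23 ± 0.19 at 5 µM (limma adjusted p = 0.00175) and 1.30 ± 0.19 at 10 µM (7.59e-04). At 1 µM it was 0.83 ± 0.19 and did not pass (limma adjusted p = 0.0542), and it passed in the fit with label number as a block (limma adjusted p = 1.01e-05). By number, the 1 µM difference was 0.8, 0.8 and 0.9, nearly the same in each pair. Without vehicle library 6, the 1 µM difference was 0.98 and passed (limma adjusted p = 0.0221). The 10 µM call held in all 23 alternatives run, at differences of 1.10 to 1.45, and was 1.25 without label number 6. The 5 µM call was lost without number 8 (1.25, limma adjusted p = 0.0926) or number 11 (1.2, 0.0800).

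VIM (ENSG00000026025, chromosome 10, 17228259 to 17237593, plus strand) encodes vimentin, the intermediate filament protein of mesenchymal cells. Its level in libraries 6, 8 and 11 was 18.7, 17.8 and 17.9 in vehicle and 18.3, 17.6 and 17.7 at 1 µM. It was 17.4, 17 and 17.2 at 5 µM, and 17.5, 17 and 17.1 at 10 µM. The vehicle and 1 µM libraries overlapped, and every library at 5 and 10 µM lay below every vehicle library. The difference was -0.27 ± 0.26 at 1 µM (limma adjusted p = 0.685), -0.93 ± 0.26 at 5 µM (0.0324) and -0.93 ± 0.26 at 10 µM (0.0239). The direction was opposite to that of FN1 and CDH2, which like VIM serve as markers of the mesenchymal state.

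At 5 and 10 µM, the VIM calls held in fewer alternatives than those of FN1 and CDH2: 15 of 23 at 5 µM and 17 of 23 at 10 µM, against 20 and 21 for FN1 and 21 and 23 for CDH2. At 10 µM the VIM call was lost without vehicle library 6 (-0.65, limma adjusted p = 0.0595), 10 µM library 8 (-0.83, 0.0829) or 10 µM library 11 (-0.88, 0.0699), and in a fit of these groups alone (-0.93, 0.0692). At 5 µM it was lost without vehicle library 6 or 11 or any of the 5 µM libraries, at differences of -0.65 to -1.05 (limma adjusted p = 0.0509 to 0.111). With label number as a block, both calls held, at -0.93 ± 0.11 for each dose, all 3 label numbers being lower. The limma adjusted p of this fit was 5.52e-05 at 5 µM and 3.60e-05 at 10 µM. With label number 6 left out of all groups, both calls held, at -0.75 for 5 µM (limma adjusted p = 0.00209) and -0.80 for 10 µM (0.00124). Without number 8 both were lost, at -1 for each dose (limma adjusted p = 0.224 and 0.161), as they were without number 11, at -1.05 and -1 (0.229 and 0.171).

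VIM shares its locus with antisense transcripts, and the strand setting of the counting is not given in the sources used here, so reads of VIM and of these transcripts may not be separable. VIM-AS1 stood at 15.2, 14.4 and 14.8 in vehicle and 14.1, 14 and 13.9 at 10 µM, a difference of -0.80 ± 0.20 (limma adjusted p = 0.0144). The antisense gene AL133415.1 (ENSG00000234961) stood at 17.2, 16.3 and 16.4 in vehicle and 16, 15.5 and 15.7 at 10 µM, a difference of -0.90 ± 0.24 (limma adjusted p = 0.0197). Every 10 µM library of both lay below every vehicle library, as for VIM. CDH2 overlaps the antisense gene AC110015.1, which rose by 0.95 ± 0.21 at 10 µM (limma adjusted p = 0.00713). FN1-DT, the divergent transcript beside FN1, differed by 0.05 ± 0.19 at 10 µM (limma adjusted p = 0.873).

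Divided by the length of the longest coding transcript, VIM was the most abundant of the 8 in vehicle and FN1 the most abundant at 10 µM. VIM had 2.93, 2.93 and 3.37 times as many normalised reads per kb as FN1 in vehicle libraries 6, 8 and 11. FN1 had 1.03, 1.36 and 1.36 times as many as VIM at 1 µM, and 2.37, 2.73 and 2.07 times as many at 10 µM. The order was thus reversed in every label number by 1 µM, where library 6 was near parity. In vehicle, mean reads per kb were 160330 for VIM, 52714 for FN1, 2631 for SNAI2, 1007 for ZEB1, 536 for CDH2, 246 for TWIST1, 172 for ZEB2 and 3.61 for SNAI1. The ranges of neighbours in this order did not overlap. At 10 µM, CDH2 reached 1351 reads per kb with a range of 1151 to 1751 and lay above ZEB1, at 983 with a range of 915 to 1052.

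ZEB1 (ENSG00000148516, chromosome 10, 31318495 to 31529814, plus strand) and ZEB2 (ENSG00000169554, chromosome 2, 144364364 to 144524583, minus strand) are zinc-finger repressors of CDH1 that bind paired E-boxes. ZEB1 lay at 12.5, 12.7 and 12.7 in vehicle libraries 6, 8 and 11 and at 12.6, 12.5 and 12.7 at 10 µM, with 12.4 to 12.7 in the groups between. Its 10 µM difference was -0.03 with a 95% interval of -0.24 to 0.17 (limma adjusted p = 0.834). ZEB2 lay at 10.8, 10.7 and 10.7 in vehicle and at 10.7, 10.7 and 10.8 at 10 µM, with 10.4 to 10.7 in the groups between. The ZEB2 difference was 0.00 with an interval of -0.18 to 0.18 (limma adjusted p = 1). Vehicle and dosed libraries of both genes overlapped, and their 10 µM intervals were narrower than those of the other 3 factors. ZEB1-AS1, on the opposite strand of ZEB1, differed by 0.20 ± 0.09 at 10 µM (limma adjusted p = 0.147), and ZEB2-AS1 was too close to the floor to be tested.

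SNAI2 (ENSG00000019549, chromosome 8, 48917604 to 48921740, minus strand) encodes Slug and was the most abundant of the 5 factors per kb. Its level in libraries 6, 8 and 11 was 12.3, 12.7 and 12.9 in vehicle and 12.6, 12.9 and 13.1 at 1 µM. It was 12.3, 12.8 and 12.9 at 5 µM, and 12.2, 12.5 and 12.8 at 10 µM. Library 6 was the lowest and library 11 the highest of each group, and the groups overlapped. The difference was 0.23 ± 0.21 at 1 µM (limma adjusted p = 0.650) and -0.13 ± 0.21 at 10 µM, with an interval of -0.59 to 0.32 (limma adjusted p = 0.696). With label number as a block the 1 µM difference of 0.23 passed (limma adjusted p = 0.0220), all 3 numbers being higher, and the 10 µM difference did not (0.0890).

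SNAI1 (ENSG00000124216, chromosome 20, 49982999 to 49988886, plus strand) encodes Snail, whose mRNA and protein turn over fast. It lay at 5.60, 5.57 and 5.35 in vehicle, 6.02, 5.61 and 5.53 at 1 µM, 5.95, 5.2 and 5.64 at 5 µM, and 5.91, 6.04 and 5.55 at 10 µM. These levels are close to the floor, and the groups overlapped. Only dosed libraries exceeded the floor by over 1 unit (6.02, 5.95, 5.91 and 6.04), so SNAI1 entered the test through them alone. The 10 µM difference was 0.33 with an interval of -0.11 to 0.77 (limma adjusted p = 0.275), and a change was not detectable at this depth.

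TWIST1 (ENSG00000122691, chromosome 7, 19020991 to 19117672, minus strand) encodes a basic helix-loop-helix factor that binds E-boxes as a dimer. It lay at 8.84, 8.84 and 8.91 in vehicle, 8.89, 8.84 and 8.88 at 1 µM, 8.57, 8.56 and 8.86 at 5 µM, and 8.96, 8.62 and 8.77 at 10 µM. Libraries 6 and 8 at 5 µM lay below the vehicle range and library 11 within it. The difference was -0.20 ± 0.11 at 5 µM (limma adjusted p = 0.252) and -0.08 at 10 µM, with an interval of -0.32 to 0.16 (limma adjusted p = 0.643). TWIST1 overlaps the antisense gene AC003986.2, which differed by 0.10 at 10 µM (limma adjusted p = 0.633).

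**Figure D3:**
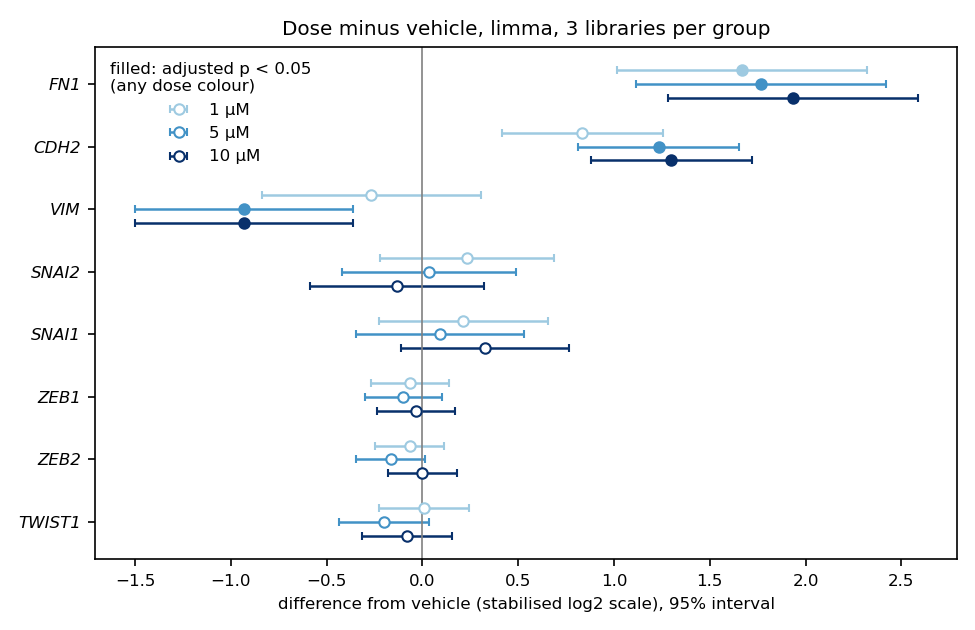
Difference from vehicle (horizontal axis, stabilised log2 scale) at 1, 5 and 10 µM for the 8 measured genes, with 95% intervals from limma and 3 libraries per group; filled points passed at an adjusted p under 0.05. FN1 and CDH2 lie to the right, VIM lies to the left, and the 5 transcription factors straddle 0.

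Between doses, no member passed the main test, which does not use the label numbers. At 5 µM against 1 µM, 0 of 8 members were called by limma, against 0.310% of all genes, and 1 had an unadjusted p under 0.05. CDH2 was 0.40 higher in each of the 3 label numbers (limma adjusted p = 0.517) and VIM was lower by 0.9, 0.6 and 0.5 (difference -0.67, limma adjusted p = 0.404). With label number as a block both passed, CDH2 at a limma adjusted p = 0.00302 and VIM at 0.00480, where 5.19% of all genes were called. At 10 µM against 5 µM, 0 of 8 members were called, against 0.00% of all genes, and 0 had an unadjusted p under 0.05. The block called 0 of the 8 at this step, against 0.00563% of all genes.

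The members differed in how much of their 10 µM difference was present at 1 µM, which is given as a description without a test. For FN1 the share was 75%, 81.8% and 100% in label numbers 6, 8 and 11. For CDH2 it was 57.1%, 66.7% and 69.2%, and for VIM 33.3%, 25% and 25%. The ranges of the 3 genes did not overlap, and in every label number the order was FN1, then CDH2, then VIM.

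Other genes whose levels followed a member most closely were taken by Pearson correlation over the 12 libraries, which share 4 dose groups and 3 label numbers. CDH2 was closest to SEC24D, a coat protein of vesicles leaving the endoplasmic reticulum (r = 0.993), TGM2 (0.989) and LYPD1 (0.984). FN1 was closest to ENSG00000257225 (0.973), SORCS2 (0.968) and GPR39 (0.967). VIM was closest to its antisense gene ENSG00000234961 (0.996), SEPTIN6 (0.973) and MYH16 (0.972). For the 5 factors the closest genes were TRAPPC11 for ZEB1 (0.956), CADM1 for ZEB2 (0.946), ENSG00000278456 for SNAI1 (0.891), MRPL16 for SNAI2 (0.961) and POU2F2-AS1 for TWIST1 (0.929). Each is among the 3 highest of all tested genes for its member, and was picked for being so.

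At 10 µM, 11.2% of all genes tested were called higher and 11.4% lower, the background for the group counts that follow. Without label number 6 these shares were 16.6% and 17.6%. Of 5 tested classical and type II cadherins, 2 rose and 0 fell at 10 µM, with a median difference of 0.47 beside a median of 0 over all genes. CDH4, R-cadherin, which can pair with N-cadherin, stood at 11.4, 11.7 and 11.7 in vehicle libraries 6, 8 and 11, at 12.5, 12.6 and 12.6 at 1 µM, and at 12.8, 12.9 and 12.9 at 10 µM. Its difference was 0.97 ± 0.09 at 1 µM (limma adjusted p = 3.85e-04) and 1.27 ± 0.09 at 10 µM (5.56e-06), with no overlap between vehicle and dosed libraries. CDH6, K-cadherin, differed by 1.74 ± 0.54 at 10 µM (limma adjusted p = 0.0387), and its vehicle libraries were far apart, at 8.08, 6.26 and 6.15. Without label number 6, where 16.6% of all genes were called higher, 3 of the 5 rose.

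Of 14 tested genes of the cadherin-catenin complex and adherens junction, 2 rose and 1 fell at 10 µM, with a median difference of 0.01. CTNNB1, the β-catenin gene, which links cadherins to the actin-bound α-catenin, rose by 0.43 ± 0.09 (limma adjusted p = 0.00651), and NECTIN2, a nectin adhesion receptor, rose by 0.57 ± 0.11 (0.00362). NECTIN1 fell, with a difference of -1.30 ± 0.32 (limma adjusted p = 0.0129).

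**Figure D4:**
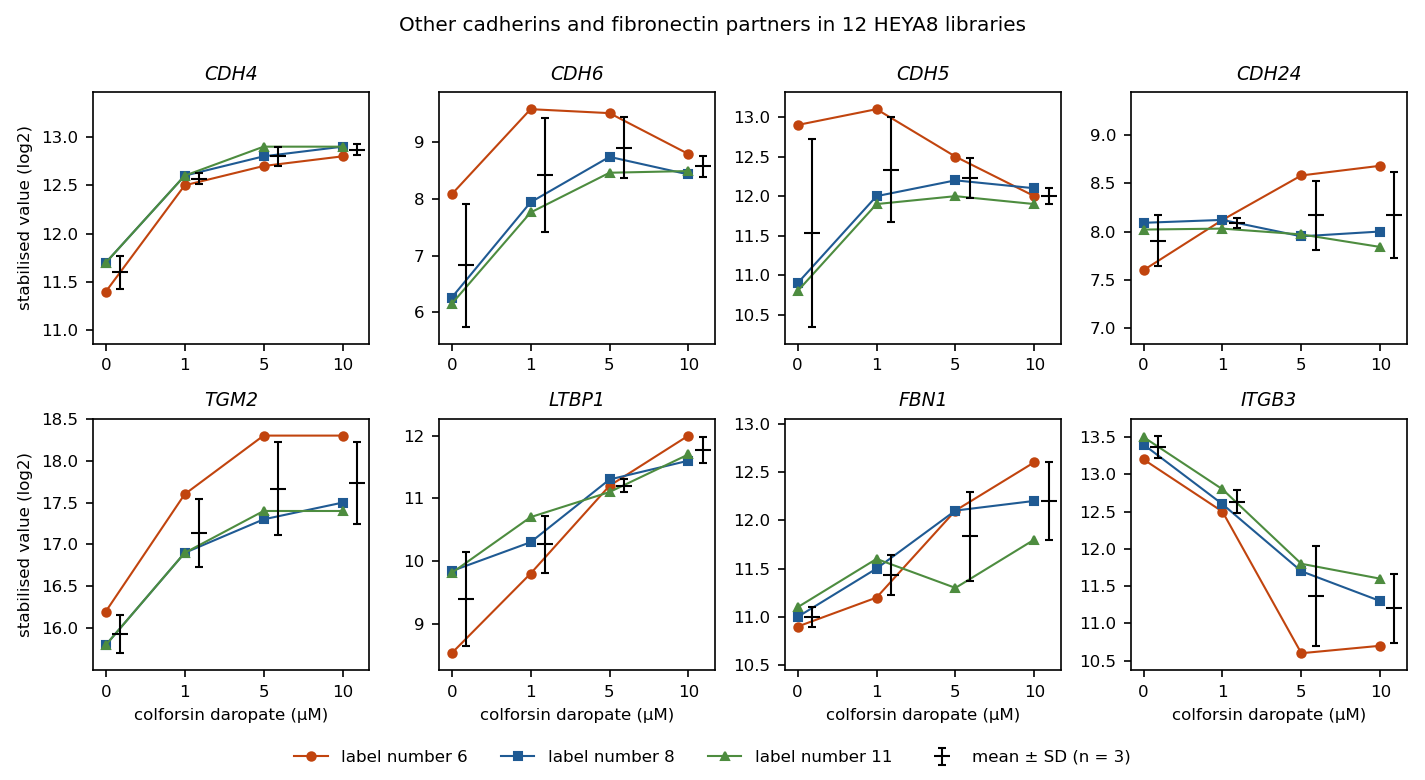
Stabilised levels (log2 scale, vertical axis) of 4 other cadherins and 4 genes of fibronectin assembly or binding in all 12 libraries against the colforsin daropate dose in µM at equal spacing; lines join the same label number, and bars show the mean ± SD of 3 libraries. CDH4, TGM2, LTBP1 and FBN1 lie above vehicle at 10 µM, ITGB3 lies below, and CDH5 in vehicle is 12.9 in library 6 and 10.9 and 10.8 in the others.

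Genes of fibronectin binding and assembly moved in both directions beside FN1. Of 22 tested, 6 rose and 2 fell at 10 µM, with a median difference of -0.03. LTBP1, which holds latent TGF-beta in fibronectin matrix, rose from 8.53, 9.84 and 9.81 in vehicle to 12, 11.6 and 11.7 at 10 µM, a difference of 2.37 ± 0.31 (limma adjusted p = 3.77e-04). TGM2, a transglutaminase that crosslinks fibronectin, rose from 16.2, 15.8 and 15.8 to 18.3, 17.5 and 17.4, a difference of 1.80 ± 0.31 (limma adjusted p = 0.00190). FBN1, the microfibril protein fibrillin, rose by 1.2 ± 0.23 (limma adjusted p = 0.00325). ITGB3, the β3 integrin subunit of a receptor for fibronectin and vitronectin, fell from 13.2, 13.4 and 13.5 to 10.7, 11.3 and 11.6, a difference of -2.17 ± 0.29 (limma adjusted p = 4.17e-04). The subunits of the main fibronectin receptor did not pass, ITGA5 differing by -0.20 ± 0.11 (limma adjusted p = 0.237) and ITGB1 by 0.37 ± 0.19 (0.183), though both passed with the block (0.0125 and 0.0123). With the block, 9 of the 22 rose and 6 fell, and 38.4% of all genes were called, 18.7% higher and 19.7% lower.

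Of 23 other mesenchymal genes tested, 9 rose and 3 fell at 10 µM, with a median difference of 0.36. COL1A1, a fibrillar collagen chain, rose from 7.31, 5.83 and 6.24 in vehicle to 10.4, 8.37 and 8.40, a difference of 2.6 ± 0.71 (limma adjusted p = 0.0218). The collagen VI chains COL6A1 (1.87 ± 0.44, limma adjusted p = 0.0108) and COL6A2 (1.23 ± 0.29, 0.0109) and the matricellular protein gene SPARC (1.23 ± 0.33, 0.0186) also rose. The genes named here are those called with the largest differences, and the 3 that fell are not named. With the block, 12 rose and 8 fell. Without label number 6, 12 of 22 rose and 5 fell, beside 16.6% and 17.6% of all genes.

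Of 13 other EMT factors tested, 4 rose and 3 fell at 10 µM, with a median difference of 0.12. FOXC1, a forkhead factor, rose by 1.16 ± 0.31 (limma adjusted p = 0.0192), and SOX4 rose by 0.73 ± 0.10 (4.38e-04). TWIST2, the paralog of TWIST1, fell from 9.96, 10.2 and 10.3 in vehicle to 8.91, 9.48 and 9.64, a difference of -0.81 ± 0.22 (limma adjusted p = 0.0211), and ETS1 fell, with -0.83 ± 0.19 (0.00843). Without label number 6, 8 rose and 4 fell, beside 16.6% and 17.6% of all genes. Of 3 ID genes, whose proteins bind E proteins, the dimer partners of TWIST factors, and keep them off DNA, 2 rose and 0 fell: ID1 by 1.52 ± 0.43 (limma adjusted p = 0.0253) and ID3 by 1.49 ± 0.44 (0.0298). Their median difference was 1.49.

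Genes for proteins that act with or on the SNAI, ZEB and TWIST factors were counted in the same way. Of 16 corepressors, 1 rose and 2 fell at 10 µM, with a median difference of -0.03, and with the block 2 rose and 3 fell. EZH2, the histone methyltransferase subunit of Polycomb complex PRC2, fell (-0.88 ± 0.23, limma adjusted p = 0.0188), RCOR1 fell (-0.33 ± 0.08, 0.0151), and CTBP2, which binds ZEB factors, rose by 0.27 ± 0.08 (0.0271). Of 19 kinases, ubiquitin ligases and deubiquitinases that act on these proteins, 2 rose and 3 fell, with a median difference of 0. PAK1, a kinase that phosphorylates Snail, fell (-0.79 ± 0.16, limma adjusted p = 0.00442), as did the ligase genes FBXW7 (-0.43 ± 0.10, 0.00891) and MDM2 (-0.40 ± 0.10, 0.0144), and FBXL5 rose by 0.33 ± 0.11 (0.0479).

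Epithelial genes split in both directions. Of 21 tested junction and keratin genes, 4 rose and 5 fell at 10 µM, with a median difference of 0.04. KRT7, a simple-epithelial keratin, rose by 1.13 ± 0.35 (limma adjusted p = 0.0368) and CLDN1, a tight junction claudin, by 1.03 ± 0.22 (0.00684). DSP, the desmosomal plaque protein desmoplakin, fell (-0.96 ± 0.19, limma adjusted p = 0.00439), as did KRT8 (-0.83 ± 0.17, 0.00519). Of 9 tested activators of epithelial genes, 0 rose and 2 fell, with a median difference of -0.24. KLF4 fell from 9.62, 9.86 and 9.70 in vehicle to 7.28, 8.32 and 8.19, a difference of -1.80 ± 0.29 (limma adjusted p = 0.00118), and FOXA2, near the floor, fell (-1.05 ± 0.16, 7.60e-04). With the block, 1 activator rose and 4 fell.

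**Figure D5:**
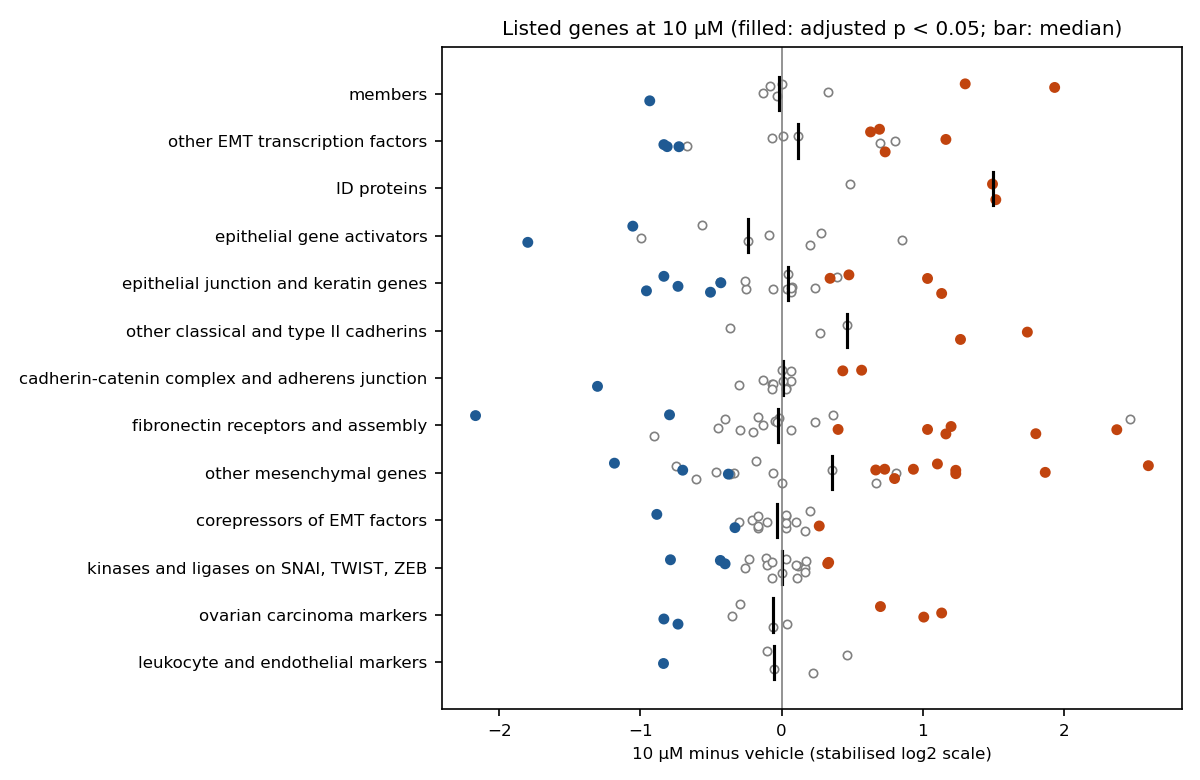
Difference between 10 µM and vehicle (horizontal axis, stabilised log2 scale) for each tested gene of the 13 gene groups named on the vertical axis; filled points passed in limma at an adjusted p under 0.05 (orange higher, blue lower), open points did not, and black bars mark the group median. The mesenchymal group has 9 filled points above 0 and 3 below, and the epithelial junction group 4 above and 5 below.

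Markers of the ovarian carcinoma line and of other cell types were set beside these results. Of 9 tested ovarian carcinoma markers, 3 rose and 2 fell at 10 µM, with a median difference of -0.06. PAX8 (0.70 ± 0.17, limma adjusted p = 0.0108), KRT7 and CD24, near the floor (1.01 ± 0.16, 9.96e-04), rose, and KRT8 and KRT18 (-0.73 ± 0.21, 0.0288) fell. Of 5 tested leukocyte and endothelial markers, 0 rose and 1 fell, VWF (-0.84 ± 0.18, limma adjusted p = 0.00558). PTPRC, which marks leukocytes, lay at 4.86 to 5.91. The summed normalised reads of the 7 measured markers of that list ranged from 1911 to 7961 in vehicle, 3929 to 9043 at 1 µM, 4170 to 5917 at 5 µM and 3902 to 4475 at 10 µM. CDH5, the endothelial cadherin, carried most of them, and the part of other cells in the results was not tested.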

How the data were processed

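HEYA8 RNA was measured in 12 libraries, 3 for each of 4 doses. Per the submitters' processing notes, the authors used DESeq2 with GRCh38 (hg38). The deposited values are variance-stabilised levels on a log2 scale, as their floor, steps and range show. Which aligner, counter, strand setting and annotation were used is not given in the sources used here. Of 21211 entries, the 4 that name no gene took 63.31% to 66.15% of reads and stayed out of all tests. Normalised reads were recovered by inverting the stabilisation: 95.7% of 81038 values under 6.5 came out whole within 0.0055. From 10 upward they carry the rounding of the deposited value. Positions and transcript lengths are from GENCODE 29.

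Levels were tested with limma 3.58.1 in R 4.3.3, with a variance trend, 4 dose groups and two-sided Benjamini-Hochberg adjustment. A gene entered if 3 or more libraries exceeded the floor by over 1 unit (17767 genes). The code was tested on simulated data. The design text calls the libraries biological replicates. The label numbers were taken to pair the samples for differences by number and for the block, and the main test does not use them. The ground was that deviations from group means of same-numbered libraries correlated in all 18 pairs (r = 0.316 to 0.777). In 36 pairs with different numbers r was -0.711 to 0.569, a range that overlaps. Deviations within each group of 3 sum to 0, so these ranges are not independent of each other. The fit with label number as a block is an alternative. Others were no filter, a stricter filter, median and quantile normalisation, 2 groups only, voom on recovered counts, array weights, and leaving out libraries or numbers.

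The members and gene lists were chosen with earlier results of these data known. All matched members are named. From each other list, up to 4 genes called at 10 µM with the largest difference are named, and each member has its 3 most correlated genes. ITGA5, ITGB1, PAX8, EPCAM, PTPRC, CDH5, CDH24, KRT19, CDH6 in vehicle and the overlapping antisense genes were named after their values were seen.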

Additional observations from a re-analysis of the deposited data

How the results depend on the processing

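Members were called in 1, 3 and 3 cases at 1, 5 and 10 µM against vehicle, and in 0 at either dose step. At 1 µM the count was 3 with the replicate block, 2 with the stricter filter, voom or array weights, 0 with quantile normalisation or 2 groups only, 2, 0 and 0 without label number 6, 8 and 11, and 0 to 2 with 1 library left out. At 5 µM it was 0 without number 8 or 11, and at 10 µM 1 without number 8. Calls over all genes also dropped in these fits, to 137 and 209 at 5 µM without number 8 and 11, and to 592 at 10 µM without number 8. At 1 µM they dropped to 4 of 17472 genes without number 8 and 2 of 17462 without number 11. For the same dose, quantile normalisation called 340 and voom 338 of 17767 genes, and the stricter filter 366 of 13913. Leaving out 1 library gave 100 to 702 calls over all genes at 1 µM. From 1 to 5 µM the member count was 2 with the replicate block, with array weights, or without number 6. Array weights called 5126 of 17767 genes at 1 µM and 1830 from 1 to 5 µM. Without number 6, 2186 of 17141 genes were called at 1 µM and 536 from 1 to 5 µM. The block raised calls over all genes from 319 to 2135 at 1 µM, 2684 to 5436 at 5 µM and 4015 to 6824 at 10 µM, and with 2 groups only they fell to 49, 1641 and 2573. The changes in sign were all among values that did not pass. Without number 8, FN1 from 1 to 5 µM was -0.05, ZEB1 at 10 µM 0.05, SNAI1 from 1 to 5 µM 0.02 and SNAI1 from 5 to 10 µM -0.065. With array weights, ZEB1 from 1 to 5 µM was 0.015 and SNAI1 at 5 µM -0.18. SNAI1 at 5 µM was -0.01 without number 11. TWIST1 at 1 µM was -0.02 with a median shift, -0.0094 with quantile normalisation and -0.015 without number 6, and TWIST1 from 5 to 10 µM was -0.015 without number 6. With 1 library left out, the range was -0.13 to 0.22 for SNAI2 at 5 µM, -0.30 to 0.017 for SNAI2 at 10 µM, -0.005 to 0.03 for TWIST1 at 1 µM, -0.17 to 0.0017 for TWIST1 at 10 µM, -0.087 to 0.29 for SNAI1 at 5 µM, -0.30 to 0.075 for SNAI1 from 1 to 5 µM, -0.067 to 0.033 for ZEB1 from 1 to 5 µM, -0.10 to 0.017 for ZEB1 at 10 µM, -0.13 to 0.20 for CDH2 from 5 to 10 µM, -0.48 to 0.017 for VIM at 1 µM and -0.045 to 0.15 for FN1-DT at 10 µM. TWIST1 at 5 µM passed with array weights (-0.24, limma adjusted p = 0.0171), a fit that called 7654 of 17767 genes at this dose. The cause of these moves was not tested. A label-number effect, which the unblocked fit counts as spread, and 3 libraries a group limit small differences. SNAI1 was too low to be tested under 3 alternatives.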

Other observations

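In vehicle, library 6 stood apart from libraries 8 and 11 in several genes of the same families as the members. CDH5, the endothelial cadherin, lay at 12.9, 10.9 and 10.8 in vehicle libraries 6, 8 and 11 and at 12, 12.1 and 11.9 at 10 µM. It was thus lower at 10 µM in library 6 and higher in libraries 8 and 11, and its mean difference did not pass (0.47 ± 0.47, limma adjusted p = 0.526). CDH6 lay at 8.08, 6.26 and 6.15 in vehicle and at 8.79, 8.43 and 8.49 at 10 µM, so the spread between libraries was smaller in the treated group. COL1A1 kept library 6 highest in each group, from 7.31 in vehicle to 10.4 at 10 µM. CDH24 was higher at 10 µM than in vehicle in library 6 (7.60 and 8.68), whereas libraries 8 and 11 went from 8.09 and 8.02 to 8 and 7.84. KRT19, a keratin of simple epithelia, lay at 5.94, 5.57 and 5.90 in vehicle and 5.16, 5.13 and 4.86 at 10 µM, too close to the floor to enter the test.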
